A study of Homo sapiens with 12 samples.

Results

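The cell cycle genes described here are 46 genes of DNA replication and mitosis, of 58735 genes in the count matrix, chosen by name for their function and for the phase in which their mRNA is known to peak. Of these, 22 are G1/S and replication genes (G1/S members) and 24 are G2/M genes (G2/M members). RNA sequencing counts came from 12 cultures of HEC-1A, a cell line from an epithelial endometrial adenocarcinoma, and T-HESC, an endometrial stromal cell line immortalized with telomerase. Both lines were grown for 48 h and then for 32 h in medium with 10% serum and either 15 µM AG-205, a small molecule named as a ligand of PGRMC1, or 0.1% DMSO, its vehicle. Each of the 4 groups (HEC-1A DMSO, HEC-1A AG-205, T-HESC DMSO, T-HESC AG-205) held 3 libraries, which the study's methods trace to independent culture experiments. Each cell type is represented by a single line, so that a difference between them is also a difference between a carcinoma and an immortalized stromal culture.

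Proliferating cells pass from G1 to DNA replication when the G1 cyclins and their kinases release E2F transcription factors from the retinoblastoma proteins. Origins are licensed by the origin recognition complex, CDC6 and CDT1, which load the MCM helicase, and ribonucleotide reductase and thymidylate synthase then feed DNA synthesis. Later, CDK1 with cyclins A and B drives entry into mitosis, the Aurora and Polo kinases build the spindle, kinetochore proteins attach it, and the anaphase-promoting complex with CDC20 ends mitosis. Genes of this second wave are repressed in resting cells by the DREAM complex and driven by B-MYB and FOXM1. Endometrial epithelium and stroma both proliferate under oestrogen in the first part of the menstrual cycle.

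Promoter stretches of 3 members of each class are shown because they carry the short motifs by which the classes are usually told apart. They are the 120 bases just before the annotated start (RefSeq, GRCh38.p14), 5′ to 3′ on the strand of the gene, with capitals marking the CHR element TTTGAA, the CCAAT box and the E2F motifs TTTGGCGC, TTTCCCGC, TTTGGCGG and TTTCCCGG on either strand. In this order they lie at chr1:43358861-43358980 (plus strand), chr15:59105026-59105145 (plus strand), chr16:23678769-23678888 (plus strand), chr2:135876444-135876563 (minus strand), chr17:40287759-40287878 (plus strand) and chr20:33686386-33686505 (minus strand).
CDC20: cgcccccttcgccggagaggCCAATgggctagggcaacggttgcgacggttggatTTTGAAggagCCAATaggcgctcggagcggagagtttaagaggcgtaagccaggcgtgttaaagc
CCNB2: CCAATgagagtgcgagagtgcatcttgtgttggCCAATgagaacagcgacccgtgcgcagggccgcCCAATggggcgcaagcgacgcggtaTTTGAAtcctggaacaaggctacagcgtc
PLK1: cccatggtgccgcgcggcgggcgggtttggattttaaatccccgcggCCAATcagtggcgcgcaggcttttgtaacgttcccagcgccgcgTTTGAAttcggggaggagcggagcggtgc
MCM6: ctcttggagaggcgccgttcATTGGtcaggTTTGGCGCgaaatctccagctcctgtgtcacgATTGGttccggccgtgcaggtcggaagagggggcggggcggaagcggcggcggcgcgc
CDC6: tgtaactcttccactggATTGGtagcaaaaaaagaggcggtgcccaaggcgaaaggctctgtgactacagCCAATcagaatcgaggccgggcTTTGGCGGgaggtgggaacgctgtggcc
E2F1: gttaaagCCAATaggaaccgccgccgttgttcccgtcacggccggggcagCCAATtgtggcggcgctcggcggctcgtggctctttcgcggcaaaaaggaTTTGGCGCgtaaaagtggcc

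Promoter windows of 250 bases before to 50 bases after a start were matched by symbol for 37 of the 46 members, with 48 windows in all since some genes have several starts. TTTGAA stood in 14 of 21 windows of G2/M members (66.7%, Wilson 95% interval 45.4% to 82.8%) and in 1 of 27 windows of G1/S members (3.70%), that of RRM1, against 15.2% of all 35116 windows. An E2F motif stood in 13 of 27 windows of G1/S members (48.1%, 30.7% to 66.0%) and in 3 of 21 of G2/M members (14.3%), against 4.31% of all windows. Both intervals count windows of the same gene as separate, so they do not give the uncertainty over genes. By gene, TTTGAA stood in 13 of 19 G2/M members with a window and in 1 of 18 G1/S members. The E2F motif stood in 12 of 18 G1/S members and in 3 of 19 G2/M members. The CCAAT box was frequent in both, in 74.1% of G1/S and 81.0% of G2/M windows, against 34.6% of all windows. With TTTAAA counted as well as TTTGAA, 22.2% of G1/S and 81.0% of G2/M windows held the element, against 24.0% of all. CDC20, PLK1 and CCNB2 had the nearest TTTGAA 60, 24 and 24 bases before the start at its last base, and E2F1, CDC6 and MCM6 had the nearest E2F motif upstream 13, 21 and 83 bases before it. A match describes letters in the window and was not tested as a binding site. No window was used for MCM4, MCM5, TPX2, TTK, AURKA, BIRC5, UBE2C, CCND1 and CCNE2.

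Total counts per library ranged from 7168542 to 15178276, and the lowest was that of HEC-1A AG-205 replicate 3. The labelled cell types matched their markers: 7 stromal genes summed to 8.44 to 14.2 CPM, counts scaled to the library's adjusted total, in HEC-1A libraries and to 12780 to 26910 CPM in T-HESC, while 7 epithelial genes summed to 1394 to 2145 CPM in HEC-1A and to 221 to 387 CPM in T-HESC. With DMSO 6 of the 7 epithelial genes were lower in T-HESC, and KRT19 did not tell the lines apart (log2 fold change 0.07 ± 0.08 SE). Libraries within a group differed by the GC content of their genes. Genes were split into 5 equal bins by GC content. Relative to the other libraries of its group, T-HESC AG-205 replicate 1 had a median log2 difference of 0.33 in the bin of lowest GC content and of -0.46 in the highest, and replicate 3 was the opposite (-0.47 and 0.58). The same contrast was smaller in HEC-1A AG-205 replicate 3 (0.15 and -0.20) and replicate 1 (-0.14 and 0.19). Transcripts of G1/S members had a median GC content of 51.4% and those of G2/M members 44.4%, so the counts of members in the AG-205 comparisons are also given without these libraries. The part of this library difference in the members' values was not tested. Libraries of a group varied less in HEC-1A, where edgeR's biological coefficient of variation was 10.1%, than in T-HESC, where it was 33.6%.

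All 46 members were detected in every library, with at least 23 counts, and all passed edgeR's filter on low counts in every comparison. In HEC-1A with DMSO the members' mean levels ran from 4.78 CPM for CCNE2, a cyclin of the G1/S switch, to 679 CPM for MKI67, the antigen used to stain cycling cells. Per kilobase of exon, the median level was 29.0 CPM per kb, and TK1, the thymidine kinase of the salvage pathway, stood at the top with 236 CPM per kb. In T-HESC with DMSO the median was 22.8 CPM per kb and CCND1, cyclin D1, stood at the top with 408 CPM per kb. Members varied little between DMSO cultures of HEC-1A (median coefficient of variation 3.91%) and more between those of T-HESC (17.1%).

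The phases stood in a different order in the lines with the DMSO vehicle. These levels were not scaled for exon length, so the shift between the lines can be read, and the order within a line cannot. Averaged over the members, HEC-1A DMSO libraries held the G1/S members at 6.95, 6.93 and 6.96 log2 CPM and the G2/M members at 6.76, 6.71 and 6.73. T-HESC DMSO libraries held the G1/S members at 5.97, 6.25 and 6.39 and the G2/M members at 6.69, 6.93 and 7.08. On the log2 scale, the G2/M mean minus the G1/S mean was thus -0.21 ± 0.02 (SD, n = 3) in HEC-1A and 0.70 ± 0.02 (SD, n = 3) in T-HESC. The 2 lines did not overlap in this difference.

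**Figure D1:**
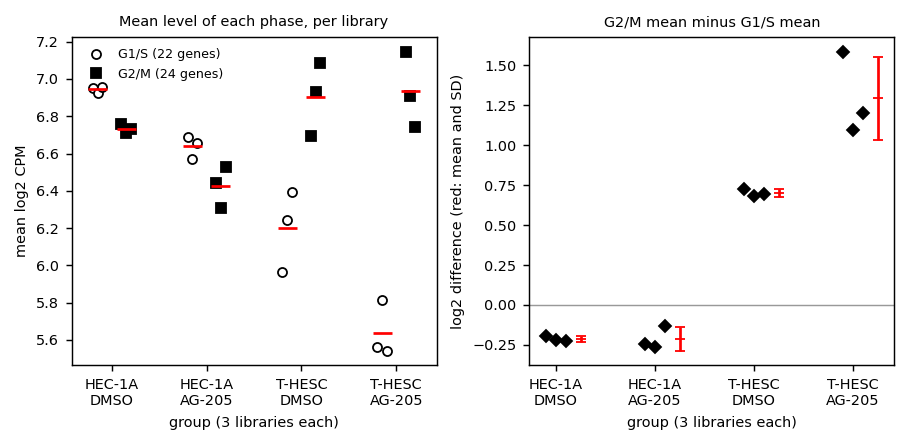
Mean log2 CPM of the 22 G1/S members (circles) and the 24 G2/M members (squares) in each of the 12 libraries (left), and the G2/M mean minus the G1/S mean (right), with red marks for group means and bars for the SD. The difference lay between -0.26 and -0.13 in the 6 HEC-1A libraries, between 0.68 and 0.73 in T-HESC DMSO and between 1.09 and 1.59 in T-HESC AG-205.

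In T-HESC with DMSO, 17 of the 46 members were lower and 7 higher than in HEC-1A with DMSO at an adjusted p under 0.05 (edgeR's quasi-likelihood test, Benjamini-Hochberg adjustment over 14789 genes). Over all genes tested, 36.1% were lower and 36.1% higher. Past a 2-fold change as well, 10 members were lower and 2 higher, where 22.3% of all genes were lower and 22.3% higher. The share of members lower (37.0%) was near that of all genes and the share higher (15.2%) below it, and the phases differed: 15 of 22 G1/S members were lower and 1 higher (median log2 fold change -0.81), while 2 of 24 G2/M members were lower and 6 higher (median 0.21). Over all genes the shares lower and higher were equal. The balance of the G2/M calls turned under other scalings, with 6 lower and 5 higher under upper-quartile scaling and 7 lower and 4 higher with a correction for GC content and length.

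All 6 subunits of the MCM helicase, which unwinds DNA at the fork, were lower in T-HESC. MCM2 was at 340, 353 and 364 CPM in HEC-1A and at 57.6, 72.9 and 91.0 CPM in T-HESC, with no overlap (log2 fold change -2.27 ± 0.16 SE, adjusted p = 1.88e-06 by edgeR). MCM5 had the smallest change of the 6 (-0.69 ± 0.12). About 24% of the exon sequence of MCM2 lies opposite another gene, and the strand setting of the counting is not given in the sources used here.

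All 5 genes of origin licensing and firing were lower too. CDC6, the loader of the helicase, was at 150.3, 156 and 154 CPM in HEC-1A and at 29.0, 38.2 and 44.8 CPM in T-HESC (-2.05 ± 0.15, adjusted p = 2.77e-06). CDT1, its partner, was at 123, 115 and 118 CPM against 59.7, 69.1 and 65.1 CPM (-0.89 ± 0.09). CDC6 differed more than CDT1, although both load the same complex, and a test of that difference was not run.

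Of the G1/S switch, CDC25A, the phosphatase that activates CDK2, was at 90.1, 92.8 and 89.3 CPM in HEC-1A and at 11.5, 14.3 and 21.6 CPM in T-HESC, the largest difference of any member (-2.54 ± 0.20, adjusted p = 4.92e-06). CCNE1, cyclin E1, was lower as well (-1.60 ± 0.19), and E2F1, which drives the G1/S genes, was lower by less (-0.36 ± 0.12, adjusted p = 0.024). CCND1 went the other way, from 544, 586 and 587 CPM in HEC-1A to 1481, 1606 and 2742 CPM in T-HESC (1.75 ± 0.22). It was the member called higher in the G1/S class. TK1 was the member called among the 4 genes of nucleotide supply, and it was lower.

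G2/M members were closer between the lines. Those higher in T-HESC were CENPE, a kinetochore motor (1.68 ± 0.17), NUF2 of the NDC80 complex (0.89 ± 0.14), KIF20A, a kinesin of cytokinesis (0.80 ± 0.10), CCNA2, cyclin A2 (0.56 ± 0.15), PLK1 (0.45 ± 0.10) and AURKA (0.41 ± 0.14). CENPE was at 32.8, 28.3 and 21.7 CPM in HEC-1A and at 103, 86.3 and 78.5 CPM in T-HESC. MKI67 was lower, at 631, 719 and 688 CPM against 274, 216 and 525.5 CPM (-1.02 ± 0.28, adjusted p = 0.010), and AURKB, the chromosomal passenger kinase, was lower by less (-0.33 ± 0.10). Of the 5 genes of the spindle checkpoint and anaphase-promoting complex 0 passed by edgeR and by DESeq2, 1 had an unadjusted p under 0.05, and 3 were lower with voom quality weights.

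The count of higher members moved from 7 to 18 without T-HESC DMSO replicate 1 and to 15 without replicate 3, where 34.9% and 39.8% of all genes were higher, and the G2/M members made up 13 of each. Of the 46 members, both counts were near those shares. Upper-quartile scaling and the correction for GC content and length put the median of all genes at -0.17 and -0.25, the G2/M median at 0.053 and -0.16, and the G1/S median at -0.97 and -1.04. Relative to all genes the G2/M members were thus higher and the G1/S members lower under both. The split of all genes was 36.1% lower and 36.1% higher before, 41.9% and 31.3% with upper-quartile scaling and 45.6% and 30.1% with the correction.

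**Figure D2:**
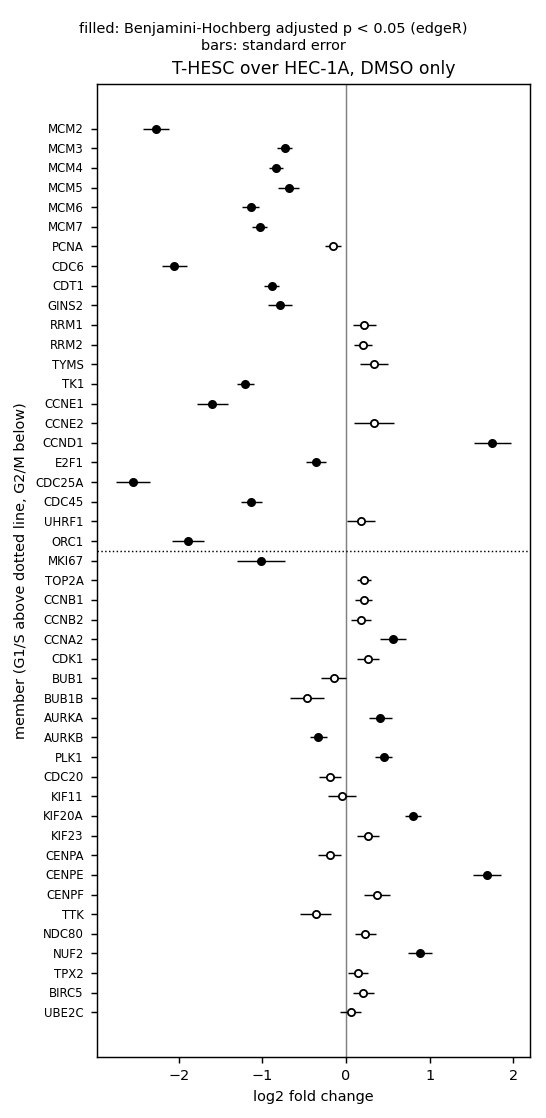
Log2 fold change of each of the 46 members between T-HESC and HEC-1A, both with DMSO (points; bars are the SE), with filled points at an adjusted p under 0.05. Filled points lie to the left in 15 of the 22 G1/S members and in 2 of the 24 G2/M members.

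In HEC-1A, cell cycle genes of both phases were lower with AG-205 than with DMSO, by less than 2-fold. At an adjusted p under 0.05, 19 of the 46 members were lower and 0 higher (edgeR's quasi-likelihood test over 14122 genes), where 4.31% of all genes tested were lower and 7.36% higher. The lower ones were 8 of 22 G1/S members and 11 of 24 G2/M members. Higher members also numbered 0 at an unadjusted p under 0.05 and by DESeq2. No member changed past 2-fold (2.77% of all genes did so in either direction). The median log2 fold change over the 46 members was -0.31, against 0.01 over all genes, and 45 of 46 values were negative. In 32 of the 46 members all 3 AG-205 libraries lay below all 3 DMSO libraries, and in 0 above, where 14.8% of all genes lay wholly below and 16.6% wholly above. Without AG-205 replicate 3, 19 G1/S and 23 G2/M members lay wholly below (25.4% of all genes), and without AG-205 replicate 1, 16 and 17 did (19.6%). The epithelial markers moved with AG-205 as well: their sum was 1394 to 1549 CPM with DMSO and 2078 to 2145 CPM with AG-205, and 3 of 7, KRT19, CLDN4 and KRT8, were higher and 0 lower. The stromal sum lay between 8.44 and 14.2 CPM over both, and the part of the marker change in the members' values was not tested. In these cultures fewer cells in a phase and less RNA per cell cannot be told apart.

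CDC20, which activates the anaphase-promoting complex, had the largest decrease. It was at 318.5, 298 and 302.5 CPM with DMSO and at 208.5, 170.0 and 199 CPM with AG-205 (log2 fold change -0.67 ± 0.10 SE, adjusted p = 0.001 by edgeR). Every AG-205 library lay below the DMSO range. The checkpoint kinases BUB1 (-0.35 ± 0.09) and BUB1B (-0.40 ± 0.09) were lower as well, so that 3 of the 5 genes of the spindle checkpoint and anaphase-promoting complex passed. TTK and UBE2C did not pass.

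CDC25A went from 90.1, 92.8 and 89.3 CPM to 66.0, 61.4 and 63.7 CPM (-0.51 ± 0.09, adjusted p = 0.0024). It and CDC20 were the members that passed in each of the 6 fits that left out a library. Of the other genes of the G1/S switch, CCND1 fell from 544, 586 and 587 CPM to 461, 436 and 401.5 CPM (-0.40 ± 0.09, adjusted p = 0.016). E2F1 did not pass (-0.20 ± 0.09, adjusted p = 0.18). CCNE1 and CCNE2 had log2 fold changes smaller than their SE, and CCNE1 was at 30.5, 26.1 and 27.4 CPM with DMSO and at 28.0, 24.8 and 29.9 CPM with AG-205.

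Among the MCM subunits, MCM4 was at 378, 380 and 386 CPM with DMSO and at 295, 259 and 284 CPM with AG-205 (-0.45 ± 0.09, adjusted p = 0.0077). MCM2 was lower by -0.55 ± 0.13, with 275, 262 and 186 CPM in the AG-205 libraries. MCM7 passed too, and MCM3, MCM5 and MCM6 had values of -0.24, -0.30 and -0.21 without passing. In all 6 the AG-205 libraries lay below the DMSO libraries. Of the fork genes, UHRF1, which brings maintenance methylation to replicated DNA, went from 122, 129 and 125 CPM to 105, 89.5 and 64.3 CPM (-0.53 ± 0.14, adjusted p = 0.028). PCNA, the sliding clamp, was at 214, 199 and 205 CPM against 177, 166 and 226 CPM, and its groups overlapped (-0.12 ± 0.12).

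Of the 5 origin licensing and firing genes 0 passed by edgeR and by DESeq2, 2 had an unadjusted p under 0.05 and 3 were lower with voom quality weights, with the value furthest from 0 at -0.32 for GINS2. CDC6 was at 150.3, 156 and 154 CPM with DMSO and at 145, 143 and 153 CPM with AG-205. In nucleotide supply, TYMS, thymidylate synthase (-0.42 ± 0.10, adjusted p = 0.016), and RRM1 (-0.36 ± 0.09) were lower. RRM2, the regulated subunit of ribonucleotide reductase, was at 103, 95.0 and 107.5 CPM against 72.0, 63.6 and 106 CPM (-0.35 ± 0.16, adjusted p = 0.19), where replicate 3 with AG-205 stood within the DMSO range. Part of the exon sequence of TYMS lies opposite other genes.

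Of the mitotic kinesins, KIF20A went from 133, 138 and 145 CPM to 111, 100.3 and 91.4 CPM (-0.46 ± 0.10, adjusted p = 0.0089), KIF11 passed (-0.32 ± 0.09) and KIF23 did not (-0.32 ± 0.10, adjusted p = 0.072). Of the mitotic kinases and their partners, TPX2, the activator of AURKA, went from 251, 247 and 247 CPM to 200.5, 173 and 183 CPM (-0.42 ± 0.09, adjusted p = 0.011). PLK1 (-0.34 ± 0.09) and AURKA (-0.31 ± 0.09, adjusted p = 0.0499) also passed, the latter just inside the threshold. Of the mitotic cyclins, CCNB1 (-0.42 ± 0.10, adjusted p = 0.017) and CCNA2 (-0.29 ± 0.09) were lower. CDK1, their kinase, was at 73.4, 63.8 and 70.3 CPM against 58.7, 52.9 and 86.4 CPM and did not pass, with a log2 fold change smaller than its SE. Replicate 3 with AG-205 was the highest of all 6 libraries for CDK1, and its value ran from -0.32 to 0.07 when single libraries were left out. CCNB2, a further mitotic cyclin, did not pass (-0.31 ± 0.11, adjusted p = 0.10 by edgeR). A difference between the cyclins and CDK1 was not tested.

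MKI67 went from 631, 719 and 688 CPM to 560, 505 and 350 CPM (-0.52 ± 0.15, adjusted p = 0.037), while TOP2A, the topoisomerase of mitotic chromosomes, did not pass (-0.28 ± 0.11, adjusted p = 0.12). Of the 5 centromere and kinetochore genes 0 passed by edgeR, 1 passed by DESeq2 and 3 with voom quality weights, and 2 had an unadjusted p under 0.05. CENPF (-0.29 ± 0.09, adjusted p = 0.053), NDC80 (-0.25 ± 0.12), CENPA (-0.32 ± 0.12) and NUF2 had negative values. CENPE was the member with a positive value (0.08 ± 0.16, and negative without AG-205 replicate 3 or DMSO replicate 3), at 32.8, 28.3 and 21.7 CPM with DMSO and at 26.6, 26.7 and 35.2 CPM with AG-205. These roles, licensing and kinetochore, held none of the 19 members called in the main fit. In fits that left out a library, CENPF passed in 2 of 6. CENPA, NDC80, NUF2, ORC1, CDC45 and GINS2 passed in 1 of 6 each, and CENPE, CDC6 and CDT1 in 0. Log2 fold change and GC content had a Spearman correlation of -0.64 over the 24 G2/M members and -0.25 over the 22 G1/S members. The part of GC content in the calls by role was not tested.

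The number of calls depended on single libraries, while the medians of both classes stayed negative. Without AG-205 replicate 3, the shallowest library, 38 members were lower, and all 19 were among them, where 13.4% of all genes were then lower. Without AG-205 replicate 1, 15 were lower, 13 of them among the 19, at 3.23% of all genes. Without AG-205 replicate 2, 8 were lower at 2.00% of all genes, and the G1/S median moved from -0.31 to -0.24. Without DMSO replicate 1, 2 or 3, 5, 5 and 2 were lower, at 1.52%, 1.22% and 0.98% of all genes. Calls of members and of all genes thus rose and fell together. With a correction for GC content and length, chosen after the data had been seen, 36 were lower, where 11.7% of all genes were lower. Fitted with all 12 libraries together, which applies the larger spread of T-HESC to both lines, 0 were lower, where 0.05% of all genes were lower. Over all these settings the median of the G1/S members lay between -0.35 and -0.24 and that of the G2/M members between -0.38 and -0.25.

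**Figure D3:**
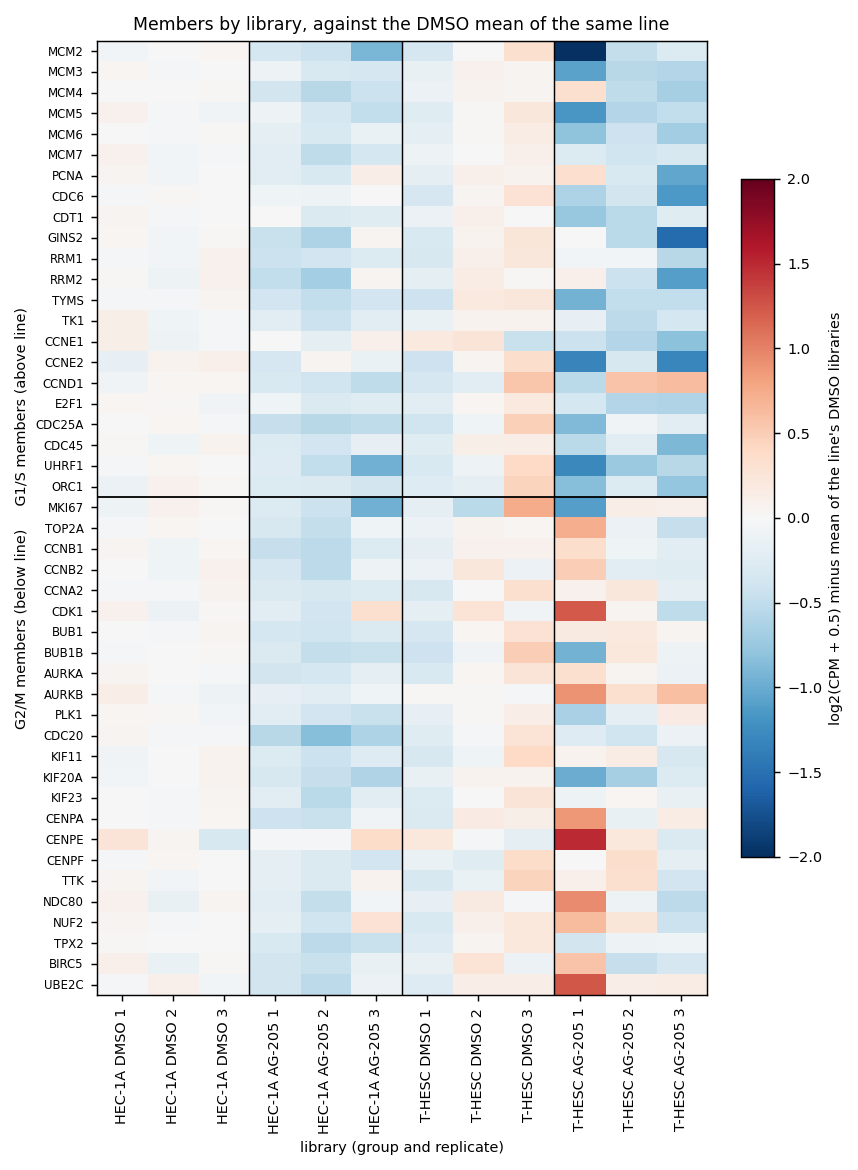
Log2(CPM + 0.5) of each of the 46 members in each library minus the mean of the 3 DMSO libraries of the same line (blue lower, red higher), with G1/S members above the black line and G2/M members below it. The HEC-1A AG-205 libraries are mostly pale blue in both classes, while in T-HESC AG-205 most G1/S members are blue and the G2/M members are mixed, with replicate 1 the most extreme.

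In T-HESC, no member passed the test (edgeR's quasi-likelihood test over 13753 genes): 0 of 46 were lower and 0 higher. In that line 0% of all genes were lower and 0.0654% higher at an adjusted p under 0.05, the same 0.0654% also past 2-fold. At an unadjusted p under 0.05, 10 members were lower and 1 higher, where 234 of all 13753 genes were lower and 489 higher. DESeq2 called 0 members, where it called 0.16% of all genes lower and 0.87% higher. The values of the phases were nevertheless unlike. The median log2 fold change was -0.58 over the G1/S members, of which 21 of 22 were negative, and 0.03 over the G2/M members, of which 10 of 24 were negative. All 3 AG-205 libraries lay below all 3 DMSO libraries in 11 of 22 G1/S members and in 1 of 24 G2/M members, KIF20A, where 5.29% of all genes did so. They lay above in 0 G1/S members and in 1 G2/M member, AURKB, where 5.87% of all genes did so.

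The 11 G1/S members with separate groups were MCM3, MCM5, MCM6, MCM7, CDC6, CDT1, ORC1, TYMS, TK1, E2F1 and UHRF1. MCM3 was at 128, 151 and 147 CPM with DMSO and at 67.4, 96.3 and 94.4 CPM with AG-205 (-0.74 ± 0.22 SE, adjusted p = 0.58 by edgeR). MCM5 was at 138, 165.5 and 191 CPM against 72.4, 108 and 116 CPM (-0.75 ± 0.25, adjusted p = 0.70), and MCM6 had a value of -0.66 ± 0.21. All of these decreases missed the adjusted threshold in a line where libraries of a group differed widely.

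UHRF1 was at 113, 131 and 186 CPM with DMSO and at 57.4, 84.0 and 95.0 CPM with AG-205 (-0.88 ± 0.28, adjusted p = 0.64). CDC6 was at 29.0, 38.2 and 44.8 CPM against 23.9, 28.5 and 16.4 CPM (-0.72 ± 0.29), and CDT1 had a value of -0.52 ± 0.22. E2F1 was at 51.8, 62.6 and 69.8 CPM against 47.8, 40.3 and 39.8 CPM (-0.54 ± 0.22, adjusted p = 0.89). TYMS had a value of -0.68 ± 0.26, and CCNE1 of -0.70 ± 0.31. CCNE2 had the lowest value of any member (-1.05 ± 0.42) at the lowest level, at most 7.79 CPM, and its groups overlapped.

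Other G1/S members differed between AG-205 libraries. MCM2 was at 12.7, 52.2 and 59.7 CPM with AG-205 against 57.6, 72.9 and 91.0 CPM with DMSO (-0.85 ± 0.50). PCNA was at 235, 151 and 90.4 CPM against 164.5, 199.5 and 196 CPM, and RRM2 at 127, 87.3 and 54.7 CPM against 104.5, 131 and 119 CPM (-0.41 ± 0.32). Replicate 1 was thus the lowest library for MCM2 and the highest AG-205 library for PCNA and RRM2. CCND1 was the G1/S member with a positive log2 fold change, smaller than its SE, at 1281, 2784 and 2856 CPM with AG-205.

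G2/M members went in both directions in T-HESC. KIF20A was at 220, 256 and 256 CPM with DMSO and at 122, 153 and 201 CPM with AG-205 (-0.64 ± 0.25, adjusted p = 0.84). AURKB was at 53.5, 53.2 and 51.0 CPM against 98.1, 65.8 and 79.6 CPM (0.62 ± 0.23, adjusted p = 0.76). CENPE (0.67 ± 0.45), UBE2C (0.59 ± 0.35), CDK1 (0.43 ± 0.44) and CENPA (0.34 ± 0.32) had the next highest values.

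The high values of CENPE, CDK1, UBE2C and CENPA came with 1 library. CENPE was at 251.5 CPM in AG-205 replicate 1 and at 102 and 72.3 CPM in the other two, against 103, 86.3 and 78.5 CPM with DMSO. CDK1 was at 195, 85.8 and 57.9 CPM against 72.0, 99.7 and 79.2 CPM. TOP2A and NDC80 had the same order, with 809, 450 and 353 CPM and with 109, 52.0 and 38.7 CPM in the AG-205 libraries. MKI67, by contrast, was lowest in replicate 1, at 146 CPM against 346 and 336 CPM. Without replicate 1 the values of CENPE, CDK1 and CENPA were -0.059, -0.25 and -0.034. Among the other G2/M members CDC20 had a value of -0.28 ± 0.23, and those of MKI67, PLK1, KIF23, BUB1, AURKA, CENPF, CCNB1, TOP2A and NDC80 were smaller than their SE.

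Without AG-205 replicate 1, the groups of 16 of 22 G1/S members were apart in the lower direction, where 12.3% of all genes were, and 4 of 24 G2/M members were. Without AG-205 replicate 3, whose GC contrast was opposite, these counts were 12 and 2 at 15.0% of all genes. Without AG-205 replicate 2 they were 13 and 1 at 9.15%, and without DMSO replicate 1, 2 or 3 the G1/S count was 17, 11 and 12, at 7.75%, 6.97% and 10.3% of all genes. No member passed in any of the 6 fits that left out a library, but these fits called hardly any gene. Dropping any DMSO replicate, or AG-205 replicate 2, left 0% of all genes called in either direction. Dropping AG-205 replicate 3 gave 0.028% higher and 0% lower. The largest shares, 0.68% higher and 0.028% lower, came from dropping AG-205 replicate 1. The absence of members from these calls therefore does not set them apart from other genes. Over all settings the G1/S median lay between -0.68 and -0.49 and the G2/M median between -0.08 and 0.17.

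**Figure D4:**
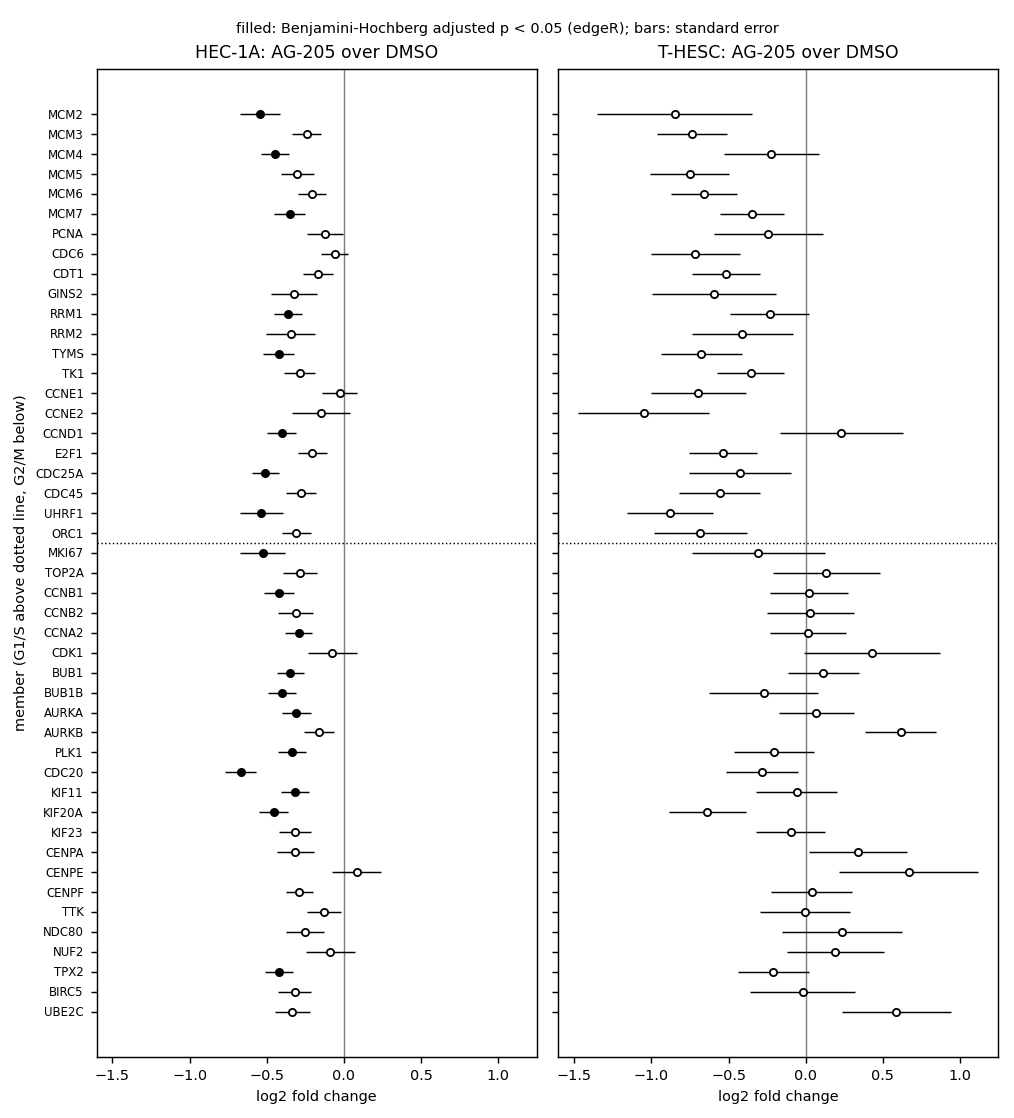
Log2 fold change of AG-205 over DMSO for each of the 46 members in HEC-1A (left) and T-HESC (right), with bars for the SE and filled points at an adjusted p under 0.05. The 19 filled points are all in HEC-1A and lie to the left of 0, and the bars are about 3 times as long in T-HESC.

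Whether AG-205 acted differently on the members in T-HESC and in HEC-1A was tested by an interaction term (T-HESC effect less HEC-1A effect) fitted to all 12 libraries over 16132 genes. No member passed: 0 of 46 were lower and 0 higher, where 0.13% of all genes were lower and 0.0434% higher. At an unadjusted p under 0.05, 2 members were lower and 2 higher, where 581 of all 16132 genes were lower and 434 higher. DESeq2 called 0 members, where it called 0.45% of all genes lower and 0.24% higher. The difference had a median of -0.28 over G1/S members and of 0.35 over G2/M members, where 23 of 24 values were positive. AURKB had the smallest p (0.79 ± 0.23, adjusted p = 0.41 by edgeR), followed by UBE2C (0.93 ± 0.38), CCNE1 (-0.66 ± 0.29) and CDC6 (-0.64 ± 0.29). The groups of CCNE1 and CDC6 overlapped in HEC-1A. That 19 members passed in HEC-1A and 0 in T-HESC is therefore no tested difference between the lines.

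Averaged over the members, G1/S members were at -0.26, -0.38 and -0.29 log2 CPM relative to the DMSO mean in the 3 HEC-1A AG-205 libraries, and G2/M members at -0.29, -0.43 and -0.21. In T-HESC the G1/S members were at -0.64, -0.39 and -0.66 and the G2/M members at 0.24, 0.01 and -0.16. With AG-205, the gap between the classes (G2/M less G1/S) was -0.21 ± 0.07 (SD, n = 3) in HEC-1A, the value it had with DMSO, and 1.29 ± 0.26 (SD, n = 3) in T-HESC, where each AG-205 library lay above each DMSO library. An exact permutation test of 3 against 3 cannot give a p under 0.1.

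Further genes of the same machinery, 30 of each class that are not members, were read in the same fits. In HEC-1A, 4.31% of all genes were lower with AG-205 and 7.36% higher. There 6 of 29 tested further G1/S genes and 3 of 30 further G2/M genes were lower and 0 higher, with medians of -0.25 and -0.20. They included POLA1, the catalytic subunit of primase-polymerase alpha (-0.45 ± 0.10, adjusted p = 0.011), MCM10 (-0.36 ± 0.09) and ANLN, the anillin of the cleavage furrow (-0.42 ± 0.08, adjusted p = 0.0075). Leaving out single libraries moved the 6 to between 0 and 21 and the 3 to between 0 and 16, with the highest counts without AG-205 replicate 3. The share of all genes lower ran from 0.98% to 13.4% in these fits and was also highest without that library. In T-HESC 0 of 29 G1/S and 0 of 30 G2/M genes passed by edgeR, DESeq2 or voom, and 0 and 1 had an unadjusted p under 0.05, with medians of -0.26 and 0.07. With DMSO, 22 of 29 tested G1/S genes were lower in T-HESC than in HEC-1A and 1 higher, led by LIG1, the replicative ligase (-1.60 ± 0.10), and GINS1 (-1.52 ± 0.11), while 8 of 30 G2/M genes were lower and 9 higher, both below the 36.1% of all genes called in each direction.

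Regulators of the program were read from a list of 24. In HEC-1A 4.31% of all genes were lower with AG-205 and 7.36% higher, and leaving out single libraries gave 0.98% to 13.4% lower. Of the regulators, 6 of 23 tested were lower and 0 higher, and this count ran from 1 to 10 in the same left-out fits. Of them E2F8, an E2F repressor (-0.59 ± 0.10, adjusted p = 0.0027), TFDP1, the partner of the E2Fs (-0.38 ± 0.09), CDK6 (-0.75 ± 0.17), CDK4 (-0.33 ± 0.09) and CCNF (-0.42 ± 0.11) had the smallest p. In T-HESC 0 of 24 passed by edgeR, 1 was lower by DESeq2, 3 passed with voom quality weights and 3 had an unadjusted p under 0.05. The one with the smallest p there was E2F2, an activator E2F, at 8.66, 10.1 and 9.39 CPM with DMSO and at 4.02, 3.24 and 4.83 CPM with AG-205 (-1.23 ± 0.28, adjusted p = 0.37). MYBL2, which encodes B-MYB, was lower in T-HESC than in HEC-1A with DMSO (-2.01 ± 0.10, adjusted p = 2.32e-07), and CCND2 and CDK6 were higher.

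Of 7 CDK inhibitors, 2 were higher with AG-205 in HEC-1A and 0 lower, where 7.36% of all genes were higher and 4.31% lower. CDKN1A, which encodes p21, was at 1.48, 1.20 and 0.99 CPM with DMSO and at 15.9, 23.4 and 14.6 CPM with AG-205 (3.87 ± 0.24, adjusted p = 5.48e-07 by edgeR). CDKN2B, which encodes p15, was at 2.47, 1.99 and 2.06 CPM against 5.94, 5.17 and 2.88 CPM (1.14 ± 0.26, adjusted p = 0.015), and lost its call without AG-205 replicate 1 or DMSO replicate 2 or 3. In T-HESC 0 of 7 passed by edgeR or DESeq2, 1 was higher with voom quality weights and 1 had an unadjusted p under 0.05. There CDKN1A was at 461, 432 and 469 CPM with DMSO and at 485, 742.5 and 883 CPM with AG-205 (0.61 ± 0.28, adjusted p = 0.97). With DMSO 5 of 7 were higher in T-HESC than in HEC-1A, where 36.1% of all genes were higher, and CDKN1A differed by 8.51 ± 0.15. CDKN1A was low in HEC-1A with either medium relative to T-HESC. The difference of its AG-205 effect between the lines passed the test (-3.23 ± 0.38, adjusted p = 0.0066), and missed it without HEC-1A DMSO replicate 3 (adjusted p = 0.056) and with replicate number as a block (adjusted p = 0.103).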

How the data were processed

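The authors extracted RNA from 3 independent cultures per group, selected polyA RNA, and used Trimmomatic 0.38 for trimming, HISAT2 2.1.0 for alignment to GRCh38 and featureCounts of Subread 2.0.0 for counting (versions from the submitters' processing notes). They deposited raw counts per gene for 12 libraries, without normalization; strandedness and the treatment of multi-mapped reads are not given in the sources used here. Of 58735 genes, 23756 had no count and 528 had no symbol. Pairs of libraries in a group differed by a chi-square of 1.79 to 207 per degree of freedom, so none was a copy.

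From these counts, CPM were computed with TMM scaling over all libraries. Tests used edgeR 4.0.16 in R 4.3.3 (TMM, filterByExpr, quasi-likelihood, Benjamini-Hochberg adjustment over all genes tested), with each line fitted alone; SE was derived from the F value. Members and lists were chosen with earlier results of these data known. Named members were representatives of each role plus the 5 with the smallest p in each direction per comparison, and in other lists those with the smallest p. P-values set a difference between groups against the spread between these cultures, and do not cover other lines. Replicate numbers were not used to pair libraries in the main fits. Deviations of same-numbered AG-205 and DMSO libraries correlated at -0.08, 0.23 and 0.00 in HEC-1A and at 0.22, -0.53 and -0.04 in T-HESC. With 3 libraries per group, these correlations cannot exclude that same-numbered cultures shared an experiment. The paper compared its RT-qPCR values as pairs from one experiment. Of the members, 15 share exon sequence with another gene (3 on the same strand, 13 on the opposite) and 11 have named pseudogenes (GENCODE 44), so their counts are uncertain by that. Alternatives were DESeq2 1.42.0, other scalings and filters, voom quality weights (limma 3.58.1), a replicate block, one fit of all libraries, a stricter threshold, left-out libraries and, added after the data had been seen, a GC content and length correction (mgcv 1.9.3). The procedure was also run on simulated counts with changes of 2-fold or more and no GC difference between libraries. It was not tried on changes as small as those of the members in HEC-1A.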

Additional observations from a re-analysis of the deposited data

Results flagged for a closer look

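The effect of AG-205 on CDKN1A differed between the lines in the test of the difference itself: T-HESC minus HEC-1A was -3.23 on the log2 scale, with 3.87 in HEC-1A and 0.61 in T-HESC. All 3 AG-205 libraries of HEC-1A lay above the DMSO libraries, at 14.6 to 23.4 CPM, and those of T-HESC lay above them too, at 485 to 883 CPM. The levels of the lines with DMSO did not overlap, at 0.99 to 1.48 CPM in HEC-1A and 432 to 469 CPM in T-HESC. The call was lost without HEC-1A DMSO replicate 3 (adjusted p = 0.056 by edgeR) and with replicate number as a block (adjusted p = 0.103 by edgeR). No member met this test.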

How the results depend on the processing

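In HEC-1A the 19 lower members became 36 with voom quality weights and 36 with the GC content and length correction. Of all genes 12.2% and 11.7% were then lower, against 4.31% before. The 19 became 4 at an adjusted p under 0.01 and 0 in the fit of all 12 libraries, where 0.05% of all genes were lower. Leaving out single libraries gave 2 to 38, and G1/S medians from -0.33 to -0.24. With replicate number as a block 16 members were lower, all among the 19, where 3.53% of all genes were lower. Whether same-numbered libraries shared an experiment is not settled by these data. The block called no member in T-HESC, where 0.12% of all genes were higher and 0% lower. It called no member in the difference between the lines either, where 0% of all genes were called in each direction. CENPE in HEC-1A ran from -0.0645 to 0.22 without single libraries. In T-HESC, CDK1 was -0.10 and CENPA -0.082 with voom quality weights, and without single libraries CDK1 ran from -0.25 to 0.73, CENPA from -0.034 to 0.51 and CENPE from -0.059 to 0.97. In the difference between the lines, voom quality weights called 1 of 46 members higher, CCND1, which was also past 2-fold. Of all 16132 genes, 1.57% were then higher and 1.71% lower, and 153 were higher past 2-fold. The G1/S medians of this difference ran from -0.42 to -0.11 without single libraries, the ends being without T-HESC DMSO replicates 1 and 3. Between the lines with DMSO, the 7 higher members became 11 with no filter and 12 with voom quality weights. Of all genes 21.4% and 38.0% were then higher, against 36.1% before. Without single libraries 6 to 18 members were higher, at 32.7% to 39.8% of all genes. There the G1/S median was -0.97 and the G2/M median 0.053 with upper-quartile scaling, and -1.04 and -0.16 with the correction. TTTGAA or TTTAAA stood in 22.2% of G1/S windows. CDKN1A in the difference between the lines missed the threshold with the replicate block (adjusted p = 0.103 by edgeR). The causes of these changes were not tested. Over single genes and counts of the further lists, 2001 alternative values were the same, 181 weaker and 59 stronger. The direction turned in 7, those of CENPE, CDK1 and CENPA. For a single gene, same means that direction and side of the threshold were kept. Weaker then means that the threshold was lost, and stronger that it was gained. For a count in a list, weaker and stronger mean a count smaller or larger by more than a set ratio. Depth did not limit detection of members, the lowest count being 23.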
